A study of Schizosaccharomyces pombe with 6 samples.

Results

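The 9 genes described here code for the glucose-sensing cAMP pathway of fission yeast (Schizosaccharomyces pombe). They are git3, gpa2, git5, git11, cyr1, cgs2, cgs1, pka1 and rst2, chosen by name in the gene annotation deposited with the counts, and all 9 were found among the 6986 genes measured. Polyadenylated RNA was sequenced from 3 libraries of strain AS2300, an h- strain in which duf89 is replaced by a hygromycin resistance marker (duf89delta::hygR), and from 3 libraries of the wild-type strain JS 77, whose labels give no mating type. Both strains were grown at 30 ºC in rich YES medium, which contains glucose, and were collected in log phase. The deposited annotation describes Duf89 as a phosphatase with a role in metabolite repair and detoxification, and by its title the study concerns how Duf89 bears on lncRNA control of phosphate homeostasis.

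In this pathway, glucose outside the cell is sensed by the receptor Git3, which acts through a G protein made of Gpa2, Git5 and Git11. Active Gpa2 stimulates the adenylate cyclase Cyr1, the cAMP it makes is broken down by the phosphodiesterase Cgs2, and cAMP releases the catalytic subunit Pka1 of protein kinase A from its regulatory subunit Cgs1. Pka1 holds back the zinc finger transcription factor Rst2, which activates fbp1 (fructose-1,6-bisphosphatase) and ste11 (the master regulator of mating) when glucose or nitrogen runs out.

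The libraries held between 18244492 and 21572536 counts. The targeted gene was checked first: duf89 (SPCC1393.13) measured 13.2 ± 3.9 CPM (counts scaled to library size with trimmed-mean factors, edgeR's cpm) in the deletion and 44.3 ± 2.1 CPM in wild type (SD, n = 3 each), and the groups did not overlap. The deletion libraries still held 229, 234 and 373 counts, a fitted level of 0.299 of wild type, so the gene was lower but not absent from the counts, and what these reads come from was not tested. The wild-type libraries come from another series, though they are stated to have been sequenced together with the mutant, so a difference in culture or preparation cannot be told apart from genotype. Their labels number the replicates without calling them biological, so their spread may be technical. Changes were tested with edgeR's quasi-likelihood test over all genes, adjusted by Benjamini-Hochberg and called at an adjusted p below 0.05.

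Of the 9 genes, 1 rose (git11), 2 fell (rst2 and cgs2) and 6 did not pass the test. Across all 6045 genes tested 53.3% were called, 28.8% higher and 24.6% lower in the deletion (53.9% of the calls higher, but 66.4% when libraries were scaled by total counts alone). The median absolute log2 fold change was 0.08 over the 9 genes and 0.24 over all tested genes. In 3 of the 9 genes the deletion and wild-type libraries did not overlap, 1 higher and 2 lower in the deletion, against 63.3% of all tested genes (32.9% higher, 30.4% lower). The receptor, the G protein alpha and beta subunits, the cyclase and the catalytic kinase subunit were the members with the smallest differences, each within 0.08 of zero on the log2 scale. In bulk samples, fewer cells with an mRNA and less of it per cell cannot be told apart.

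**Figure D1:**
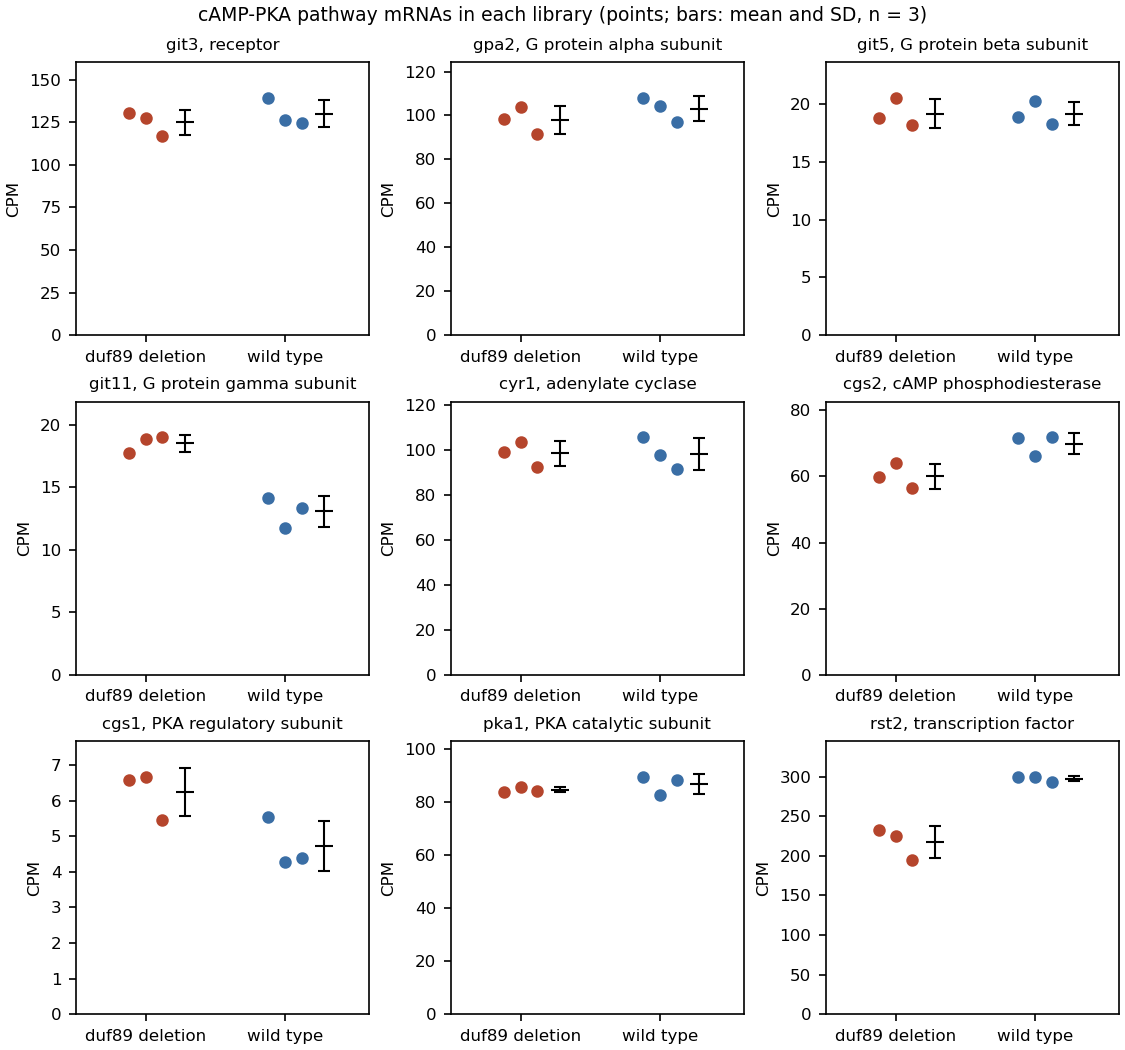
CPM of the 9 pathway mRNAs in each library (1 point per library, y axes from 0), with the duf89 deletion left of wild type and black bars for the mean and SD of 3 libraries. The libraries separate for git11 (17.8 to 19.0 CPM in the deletion, 11.7 to 14.2 CPM in wild type), rst2 (194 to 232 CPM, against 293 to 299.7 CPM) and cgs2 (56.5 to 63.9 CPM, against 66.3 to 71.8 CPM), and overlap for the other 6 genes.

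The receptor gene git3 (SPCC1753.02c, chromosome III) had 2827, 2603 and 2460 counts in the deletion libraries and 2520, 2453 and 2356 in the wild-type libraries. Scaled to library size this was 124.9 ± 7.2 CPM in the deletion and 130.1 ± 8.1 CPM in wild type (SD, n = 3 each), with overlapping groups. Its log2 fold change was -0.06 (SE 0.06, adjusted p = 0.45, edgeR). The approximate 95% interval of the difference ran from -0.20 to 0.08. This and the later intervals are not adjusted for the number of genes tested. In the RefSeq annotation, 13.9% of the git3 transcript is overlapped on the opposite strand by the antisense RNA rec7-antisense-1. That RNA had 75 to 101 counts per library and did not pass (log2 fold change -0.20, adjusted p = 0.37, edgeR). The part of this overlap in the git3 counts was not tested.

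The subunits of the G protein did not move together. The alpha subunit gene gpa2 (SPAC23H3.13c, chromosome I), also called git8, had 2136, 2119 and 1924 counts in the deletion and 1953, 2025 and 1837 in wild type, or 97.9 ± 6.3 CPM and 103.2 ± 5.5 CPM. The libraries overlapped, and the log2 fold change was -0.08 (SE 0.06, adjusted p = 0.34, edgeR; interval -0.22 to 0.07). The beta subunit gene git5 (SPBC32H8.07, chromosome II), also called gpb1, measured 19.2 ± 1.2 CPM in the deletion and 19.2 ± 1.0 CPM in wild type, from 383 to 419 and 342 to 394 counts. Its fitted difference was close to zero, with an interval from -0.20 to 0.20 on the log2 scale (adjusted p = 0.998, edgeR).

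The gamma subunit gene git11 (SPBC215.04, chromosome II), whose small protein holds the beta subunit at the membrane, was the member that rose. It had 385, 384 and 400 counts in the deletion libraries, against 256, 228 and 252 in the wild-type libraries. This is 17.8, 18.8 and 19.0 CPM in the deletion and 14.2, 11.7 and 13.3 CPM in wild type. Every deletion library stood above every wild-type library, and the deletion values lay closer together. The rise was 41.7%, or 0.50 on the log2 scale (SE 0.10, adjusted p = 0.0031, edgeR), and the authors' deposited table gives 0.48 (adjusted p = 2.9e-04). It passed in each of 17 alternative fits, with values from 0.30 with cyclic loess scaling, which removes a trend with abundance, to 0.57 with total counts.

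The cyclase gene cyr1 (SPBC19C7.03, chromosome II), also called git2, had 2156, 2114 and 1951 counts in the deletion and 1912, 1904 and 1732 in wild type. The scaled levels were 98.6 ± 5.6 CPM in the deletion and 98.5 ± 7.1 CPM in wild type, with overlapping libraries (adjusted p = 0.99, edgeR; interval of the log2 difference -0.15 to 0.15). The phosphodiesterase gene cgs2 (SPCC285.09c, chromosome III), also called pde1, whose product degrades cAMP, had 1295, 1304 and 1189 counts in the deletion, against 1296, 1287 and 1358 in wild type. Scaled to library size, the deletion libraries measured 59.7, 63.9 and 56.5 CPM and the wild-type libraries 71.7, 66.3 and 71.8 CPM, and each deletion library lay below each wild-type library.

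On average cgs2 fell by 14.1%, or -0.22 on the log2 scale (SE 0.07, adjusted p = 0.021, edgeR), against -0.24 in the authors' deposited table (adjusted p = 0.0034). The call did not hold when deletion replicate 1 was left out (-0.18, adjusted p = 0.10), nor when deletion replicate 3 was (-0.15, adjusted p = 0.098). Scaling by total counts also ended it (-0.15, adjusted p = 0.095). In the RefSeq annotation 28.4% of the cgs2 transcript is overlapped on the opposite strand by ret2, which codes for the delta subunit of the coatomer coat. The ret2 mRNA rose to 84.5 ± 7.3 CPM in the deletion, against 63.2 ± 0.8 CPM in wild type (log2 fold change 0.42, SE 0.07, adjusted p = 0.0012). The libraries are stranded, but no source used here says whether reads were counted by strand. The values of cgs2 and ret2 are therefore uncertain, and the part of the overlap in them was not tested.

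The kinase subunits differed in level and in spread. The regulatory subunit gene cgs1 (SPAC8C9.03, chromosome I) had the lowest counts of the 9 genes, 143, 136 and 115 in the deletion and 100, 83 and 83 in wild type. Scaled, this was 6.59, 6.67 and 5.46 CPM in the deletion, against 5.53, 4.27 and 4.39 CPM in wild type. The groups overlapped through deletion replicate 3 and wild-type replicate 1, which were nearly equal. The log2 fold change of 0.40 (SE 0.17) missed the threshold (adjusted p = 0.071, edgeR), and the authors' deposited table gives 0.38 (adjusted p = 0.11). Leaving out wild-type replicate 1 made it pass (0.53, adjusted p = 0.028), as did scaling by total counts (0.47, adjusted p = 0.045). Its interval, 0.02 to 0.78, was the widest among the 9 genes. It lies above no change because the interval, unlike the adjusted p, is not corrected over the genes tested.

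The catalytic subunit gene pka1 (SPBC106.10, chromosome II), also called git6, had 1822, 1749 and 1776 counts in the deletion and 1621, 1605 and 1669 in wild type. Its levels were 84.7 ± 0.9 CPM in the deletion and 86.9 ± 3.7 CPM in wild type. The groups overlapped, and the log2 fold change was -0.04 (SE 0.05, adjusted p = 0.59, edgeR), with an interval from -0.16 to 0.08.

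The transcription factor gene rst2 (SPAC6F12.02, chromosome I) was the most abundant member and the one with the smallest adjusted p. It had 5036, 4593 and 4088 counts in the deletion, against 5418, 5806 and 5546 in wild type. Scaled, this was 232, 225 and 194 CPM in the deletion and 299.7, 299 and 293 CPM in wild type. Every deletion library lay below every wild-type library, and deletion replicate 3 was the lowest and the spread wider in the deletion. It averaged 217 ± 20.3 CPM in the deletion and 297 ± 3.4 CPM in wild type, a fold of 0.730, which is -0.45 on the log2 scale (SE 0.06, adjusted p = 6.2e-04, edgeR), and the authors' deposited table gives -0.47 (adjusted p = 1.1e-10). It passed in each of 17 alternative fits, with values from -0.55 to -0.35. The SNARE gene fsv1 overlaps 5.2% of the rst2 transcript on the opposite strand in RefSeq, and it rose (log2 fold change 0.34, SE 0.09, adjusted p = 0.011); with cyclic loess fsv1 measured 0.08 (adjusted p = 0.36).

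The median fold change differed between abundance classes, so each member was set beside protein-coding genes of similar abundance. In the eighth of genes that holds rst2, the second highest, the median log2 fold change was -0.11 and its interquartile range ran from -0.22 to 0.01. The rst2 value of -0.45 lay below that range. Both git11 and cgs1 belong to the lowest eighth, where the median was 0.20 and the interquartile range ran from -0.17 to 0.46. The git11 value of 0.50 lay just above that range and the cgs1 value of 0.40 inside it. The cgs2 value of -0.22 and the git5 value near zero both lay under the interquartile range of their eighths, which ran from -0.07 to 0.37 and from 0.08 to 0.49. With cyclic loess git5 measured -0.24 and did not pass (adjusted p = 0.080). The values of git3, gpa2, cyr1 and pka1 lay inside the interquartile range of theirs.

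Levels were compared between genes per kilobase of the RefSeq transcript. These lengths come from build ASM294v3 and include untranslated parts, and are not taken from the annotation the reads were counted on, so the order between genes and the size of a ratio depend on them, while a difference between the groups does not. In the deletion, rst2 was highest at 57.9 ± 5.4 CPM per kilobase, followed by pka1 at 43.1 ± 0.5, gpa2 at 35.2 ± 2.3, cgs2 at 34.3 ± 2.1 and git3 at 33.2 ± 1.9 CPM per kilobase. Below these were git11 at 18.8 ± 0.7, cyr1 at 18.2 ± 1.0, git5 at 10.1 ± 0.65 and cgs1 at 2.66 ± 0.29 CPM per kilobase (SD, n = 3 each). The ranges of gpa2, cgs2 and git3 overlapped, as did those of git11 and cyr1. Within each deletion library, gpa2 lay above both cgs2 and git3. The order of cgs2 and git3, and that of git11 and cyr1, differed between deletion libraries. In wild type the order was rst2 at 79.3 ± 0.9, pka1 at 44.2 ± 1.9, cgs2 at 40.0 ± 1.8, gpa2 at 37.1 ± 2.0, git3 at 34.6 ± 2.1, cyr1 at 18.2 ± 1.3, git11 at 13.2 ± 1.2, git5 at 10.1 ± 0.5 and cgs1 at 2.02 ± 0.30 CPM per kilobase. There the range of cgs2 overlapped that of gpa2, and gpa2 overlapped git3, while cyr1 and git11 were apart. Within each wild-type library, cgs2 lay above gpa2 and gpa2 above git3. Among tested protein-coding genes the deletion levels ranged from percentile 3.4 for cgs1 to percentile 60.2 for rst2, and the wild-type levels from percentile 2.6 for cgs1 to percentile 70.6 for rst2.

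**Figure D2:**
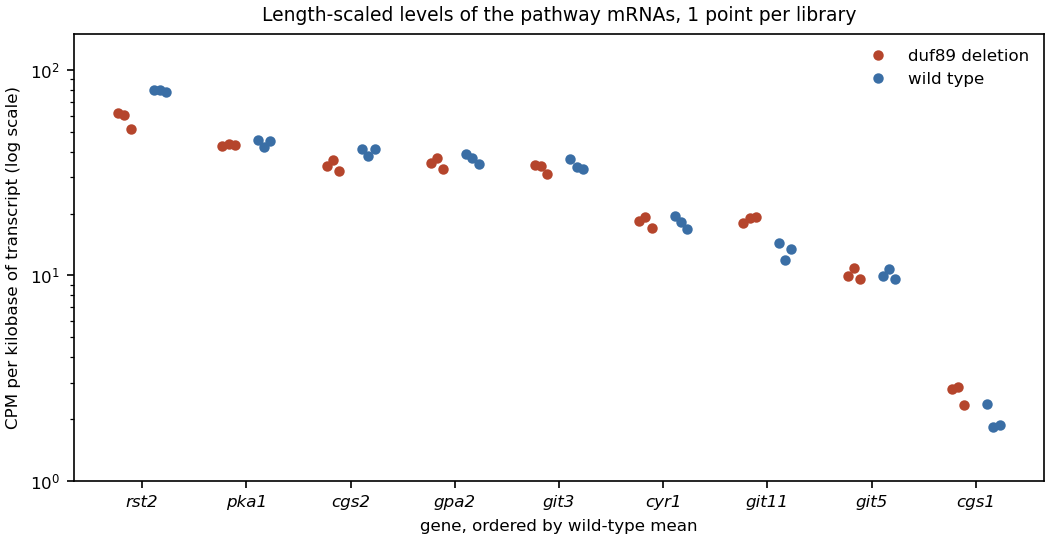
CPM per kilobase of annotated transcript (log scale) for the 9 genes, ordered by the wild-type mean, with 1 point per library and the duf89 deletion left of wild type. The genes run from rst2 (57.9 CPM per kilobase on average in the deletion and 79.3 in wild type) down to cgs1 (2.66 and 2.02). The points of git11 and cyr1 overlap in the deletion and are apart in wild type.

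Ratios of mRNA pairs within a library need no scaling for library size. Shifts that differ between abundance classes do not cancel in them, and the part of such shifts was not tested. The 4 pairs were compared by exact two-sided permutation tests over libraries, for which 3 against 3 cannot give a p below 0.1. Per kilobase, pka1 exceeded cgs1 by 15.2, 15.3 and 18.4 times in the deletion and by 19.3, 23.0 and 24.0 times in wild type. The log2 difference was -0.44 (exact p = 0.1, 0.13 after Benjamini-Hochberg adjustment over the 4 pairs), and every deletion library was lower. The cyclase over phosphodiesterase ratio, cyr1 over cgs2, was 0.537, 0.523 and 0.529 in the deletion and 0.476, 0.477 and 0.411 in wild type (log2 difference 0.22, exact p = 0.1, adjusted 0.13), higher in every deletion library. The beta over gamma subunit ratio, git5 over git11, was 0.551, 0.568 and 0.498 in the deletion and 0.695, 0.899 and 0.714 in wild type (log2 difference -0.51, exact p = 0.1, adjusted 0.13), lower in every deletion library. The alpha over beta subunit ratio, gpa2 over git5, was 3.57, 3.45 and 3.43 in the deletion and 3.89, 3.50 and 3.62 in wild type, and overlapped (log2 difference -0.08, exact p = 0.2). The pairs that separated mostly restate the differences of git11, cgs2 and cgs1 given above, because git5, cyr1 and pka1 changed little. They are not separate evidence.

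**Figure D3:**
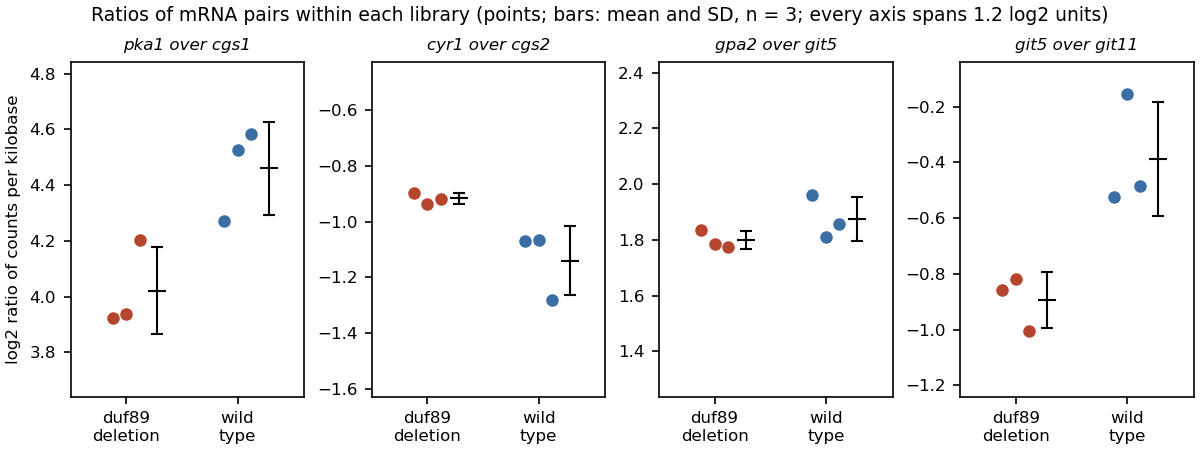
Log2 ratio of counts per kilobase for pka1 over cgs1, cyr1 over cgs2, gpa2 over git5 and git5 over git11, with 1 point per library, the duf89 deletion left of wild type, and bars for the mean and SD of 3 libraries. The groups are apart for 3 pairs (mean log2 ratios of 4.02 in the deletion and 4.46 in wild type, -0.92 and -1.14, and -0.89 and -0.39) and overlap for gpa2 over git5 (1.80 and 1.88).

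In the annotation 7 of the 9 transcripts have a larger untranslated part than the median protein-coding gene. The untranslated share of the transcript had a median of 51.6% over the 9 genes and 25.1% over 5107 protein-coding genes. It was highest in git11 (77.8%, for 219 coding bases in a transcript of 987 bases), git3 (62.8%), gpa2 (61.7%) and rst2 (54.5%). The exceptions were pka1 (21.7%) and cyr1 (6.3%), whose transcript of 5419 bases is the longest. The share in cgs2 was 40.4%, so the 3 genes that were called all lay above the median of protein-coding genes, as did 4 of the 6 that did not pass.

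The genes beside each member on the chromosome were measured as well. Neighbours were taken by the nearest gene midpoint on each side, so rec7-antisense-1, which overlaps git3, is not among them. Of these 18 neighbours 13 had enough counts to be tested. Of the 13, 4 rose, 5 fell and 4 did not pass, beside 28.8% higher and 24.6% lower over all tested genes. The neighbours of rst2 went opposite ways, with fsv1 as above and the AAA ATPase gene cdc48 lower (-0.16, adjusted p = 0.018); the cdc48 call was lost without deletion replicate 2 (adjusted p = 0.11), deletion replicate 3 (0.070) or wild-type replicate 2 (0.087) and with cyclic loess (0.0022 on the log2 scale), total counts (-0.10, adjusted p = 0.086) and GC-corrected offsets (-0.09, adjusted p = 0.11). Beside git11, csn1 of the COP9 signalosome rose by 0.23 on the log2 scale (adjusted p = 0.022), which was lost without wild-type replicate 2 (0.074) or 3 (0.052) with cyclic loess (-0.03) and with GC-corrected offsets (0.16, adjusted p = 0.094), and the asparagine tRNA gene on the other side had too few counts. Beside cgs2, ear1 fell (-0.28, adjusted p = 0.0029). Beside git3, ssb2 rose (0.17, adjusted p = 0.025), which was lost without wild-type replicate 1 (0.083) and with GC-corrected offsets (0.11, adjusted p = 0.11). Beside git5 the antisense RNA mug93-antisense-1 fell (-0.85, adjusted p = 0.0010), beside cyr1 SPBC19C7.04c fell (-0.80, adjusted p = 0.0053), and beside pka1 the phospholipase gene plg7 fell (-0.23, adjusted p = 0.0043). The 4 that did not pass were omh5 (0.05), cut4 (0.01), SPAC23H3.12c (0.05) and SPAC8C9.04-antisense-1 (0.02), of which the last passed without wild-type replicate 1 (0.68, adjusted p = 0.021). No antisense RNA named after one of the 9 genes was measured, though rec7-antisense-1 overlaps git3 as described above.

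Another 32 genes linked to the pathway were read from the same fit in 7 lists. Of these, 4 rose, 14 fell and 14 did not pass, with a median log2 fold change of -0.15, against 0.00047 over all tested genes. These counts stand beside 53.3% called, 28.8% higher and 24.6% lower, over all tested genes. The share called is near that background, but its split by direction is not, since here more genes fell than rose. All 32 are protein-coding, and of 4957 tested protein-coding genes 1646 rose and 1184 fell. Abundant genes leaned lower, with medians of -0.04 and -0.11 in the eighths of abundance that hold git3 and rst2. The 32 genes were not set beside genes of similar abundance, so the part of abundance in this split was not tested. These lists were chosen with earlier results of these data known. The fallers were sensitive to scaling, with 9 lower when total counts were used and 8 with cyclic loess.

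Among 5 genes that assist the cyclase or Gpa2, 1 rose, 3 fell and 1 did not pass, beside 28.8% higher and 24.6% lower over all tested genes. The co-chaperone gene git7, of a protein related to Sgt1, rose 50.9% to 34.5 ± 4.0 CPM in the deletion, against 22.9 ± 4.7 CPM in wild type (log2 fold change 0.59, SE 0.15, adjusted p = 0.0078). Its partner hsp90, also known as git10 and swo1, fell (-0.27, SE 0.07, adjusted p = 0.011), but did not pass without wild-type replicate 2 (-0.24, adjusted p = 0.052) or with cyclic loess (-0.09, adjusted p = 0.29). The cyclase-associated protein gene cap1 fell (-0.20, SE 0.05, adjusted p = 0.0068), with cyclic loess again excepted (-0.08, adjusted p = 0.16). The C2 domain protein gene git1, which acts with Cyr1, measured 0.03 (adjusted p = 0.69). The gene stm1, annotated as a predicted vacuolar amino acid transporter and described as a binding partner of Gpa2, fell to 328, 311 and 311 CPM in the deletion, against 527, 567 and 545 CPM in wild type. Its groups were well apart (-0.79, SE 0.05, adjusted p = 2.7e-06).

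Of the 4 moc genes, multicopy suppressors of cyclase overexpression, 2 fell, beside 24.6% lower over all tested genes. They were moc1 (sds23), of a phosphatase inhibitor (-0.18, adjusted p = 0.013), and moc4 (zfs1), of an mRNA-binding zinc finger protein (-0.18, adjusted p = 0.039). The call of moc1 was lost without deletion replicate 2 (0.060) or 3 (0.053) or wild-type replicate 2 (0.061), and that of moc4 without any one library but deletion replicate 2 (adjusted p up to 0.16). Neither moc3, of a zinc finger transcription factor (-0.15, adjusted p = 0.065), nor moc2 (sum3), of a translation initiation helicase (-0.09, adjusted p = 0.099), passed, and moc2 measured 0.10 (adjusted p = 0.027) with cyclic loess. By contrast moc3 passed with DESeq2 (-0.16, adjusted p = 0.042), with DESeq2's size factors in edgeR (-0.16, adjusted p = 0.048) and with GC-corrected offsets (-0.22, adjusted p = 0.015), and has an adjusted p of 0.028 in the authors' deposited table. Of 3 related kinase genes 1 fell, beside the same 24.6% over all tested genes. It was sck2 (-0.28, SE 0.08, adjusted p = 0.017). Its call was lost without deletion replicate 1 (0.052) or 3 (0.072) or wild-type replicate 2 (0.053). The kinase gene sck1, a high-copy suppressor of pathway mutants, measured -0.13 (adjusted p = 0.074, and 0.018 without wild-type replicate 3), and psk1 measured 0.04. The hexokinase genes, whose products phosphorylate sugar after uptake, went opposite ways, beside 28.8% higher and 24.6% lower over all tested genes. Here hxk2 rose to 882 ± 100.4 CPM in the deletion, against 708 ± 23 CPM in wild type (0.32, SE 0.07, adjusted p = 0.0054). The fall of hxk1 (-0.13, adjusted p = 0.039) was lost with 4 of the 6 libraries left out in turn (adjusted p up to 0.19) and measured 0.03 with cyclic loess.

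Of the 3 genes under the control of Pka1 and Rst2, 1 fell and 2 did not pass, beside 24.6% lower over all tested genes. The glucose-repressed gene fbp1, a direct target of Rst2, was barely expressed, with 7.01, 7.55 and 6.41 CPM in the deletion and 5.53, 6.23 and 5.34 CPM in wild type. All deletion libraries were above all wild-type libraries, yet the difference missed the threshold (0.29, SE 0.14, adjusted p = 0.11, edgeR). The other direct target, ste11, measured 80.3, 60.2 and 62.8 CPM in the deletion and 76.7, 69.4 and 64.5 CPM in wild type, and overlapped (-0.05, SE 0.11, adjusted p = 0.72). The meiotic regulator gene mei2, which Ste11 activates, fell to 65.4, 42.2 and 43.2 CPM in the deletion, against 95.7, 101.5 and 90.9 CPM in wild type (-0.93, SE 0.15, adjusted p = 9.9e-04). Deletion replicate 1 was the highest deletion library for both ste11 and mei2.

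Among 10 other regulators of fbp1, 6 fell, 0 rose and 4 did not pass, beside 24.6% lower and 28.8% higher over all tested genes. The stress transcription factor gene atf1 fell most, to 177 ± 10.3 CPM in the deletion, against 239 ± 22 CPM in wild type (-0.43, SE 0.07, adjusted p = 0.0012), and its partner pcr1 fell by 0.19 (adjusted p = 0.014). The MAP kinase gene sty1 fell by 0.19 (adjusted p = 0.0055) and the glucose repressor gene scr1 by 0.26 (adjusted p = 0.0080). The corepressor gene tup12 fell by 0.15 (adjusted p = 0.032) and the CCAAT-binding subunit gene php5 by 0.19 (adjusted p = 0.012). With cyclic loess tup12, sty1 and php5 did not pass (-0.0082, -0.04 and -0.07), and with total counts tup12, pcr1 and php5 did not (-0.09, -0.12 and -0.12). Leaving out 1 library ended the call of tup12 in 4 of 6 cases (adjusted p up to 0.16), that of pcr1 without deletion replicate 3 (0.053) or wild-type replicate 2 (0.062), and that of php5 without deletion replicate 1 (0.054) or 3 (0.0505, just over the threshold). The other 4 were tup11 (0.02), wis1 (-0.15), php2 (0.11) and php3 (-0.04); without deletion replicate 3 tup11 (0.12, adjusted p = 0.049), wis1 (-0.21, adjusted p = 0.048) and php2 (0.17, adjusted p = 0.047) passed. The php2 difference also passed with total counts (0.18, adjusted p = 0.029) and GC-corrected offsets (0.18, adjusted p = 0.025), and php3 passed as lower with cyclic loess (-0.20, adjusted p = 0.018).

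The pheromone pathway uses a separate G protein, and 2 of its 5 genes rose, beside 28.8% higher over all tested genes. The beta subunit gene gnr1 rose to 6.27 ± 0.99 CPM in the deletion, against 3.87 ± 0.26 CPM in wild type, with groups apart (0.70, SE 0.17, adjusted p = 0.0077). The gene rgs1, of a regulator of the alpha subunit, rose to 85.6, 52.7 and 67.6 CPM in the deletion, against 51.5, 49.8 and 49.3 CPM in wild type (0.45, SE 0.14, adjusted p = 0.023), with a wide spread in the deletion. That call was lost without deletion replicate 1 (0.30, adjusted p = 0.053) or wild-type replicate 2 (0.45, adjusted p = 0.077), with cyclic loess (0.29, adjusted p = 0.12) and with GC-corrected offsets (0.35, adjusted p = 0.054). The alpha subunit gene gpa1 measured -0.17 (adjusted p = 0.19, and 0.049 without deletion replicate 1). The receptor genes mam2 and map3 measured 0.02 and -0.18 and did not pass, though map3 did with cyclic loess (-0.43, adjusted p = 0.0027).

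**Figure D4:**
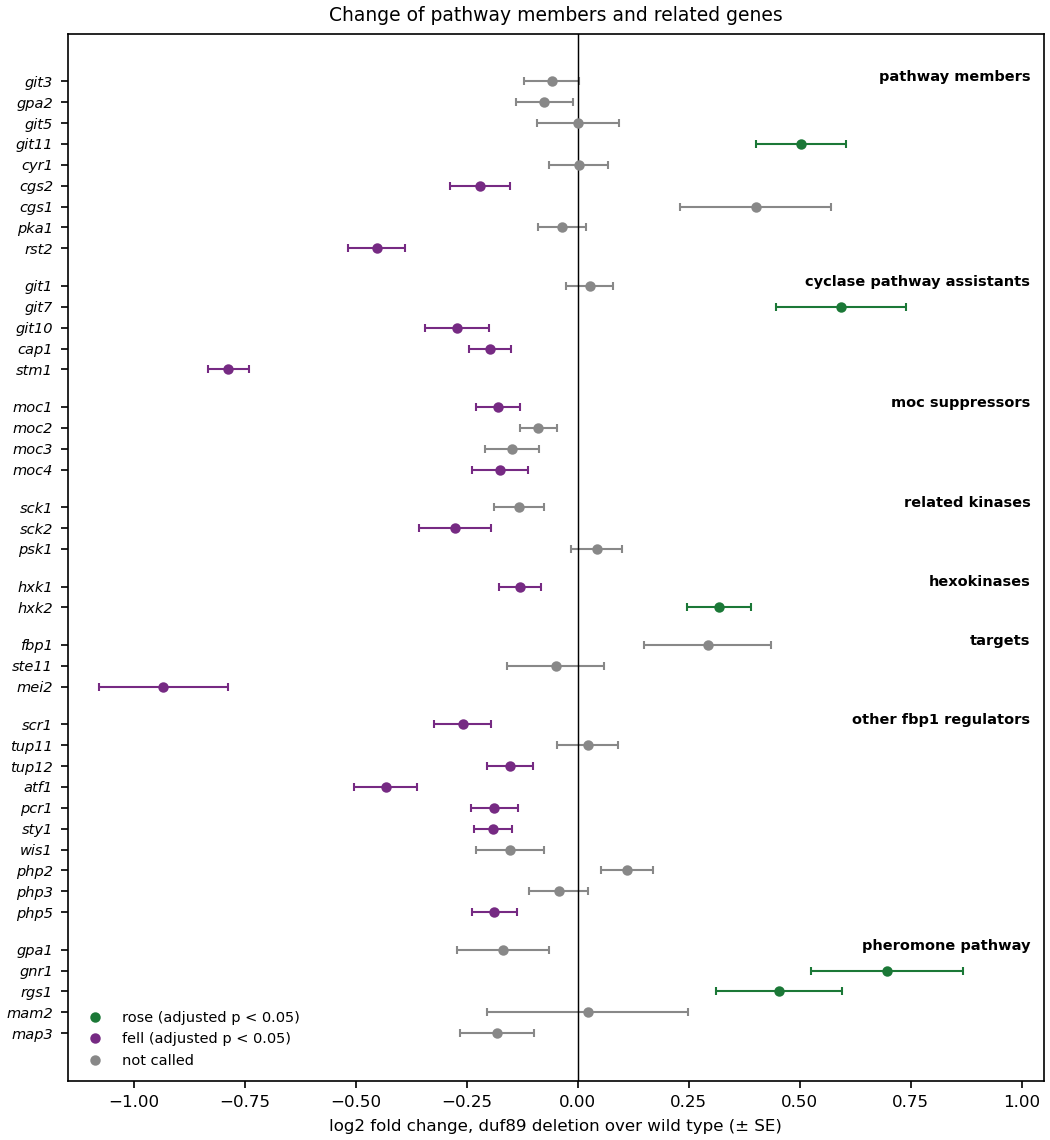
Log2 fold change of the duf89 deletion over wild type, with its approximate SE, for the 9 pathway members at the top and the 32 related genes below them by list. Green points rose, purple points fell and grey points did not pass an adjusted p of 0.05, with mei2 (-0.93) and stm1 (-0.79) as the lowest and gnr1 (0.70) as the highest values plotted.

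Over the 6 libraries the protein-coding genes most like rst2 by Pearson's correlation of log2 CPM, among 4827 candidates, were hhp1 (r = 0.999), mug122 (r = 0.998) and krs1 (r = 0.998), which code for a protein kinase, a PX domain protein and a lysine-tRNA ligase. These values are a description, because all 4 genes were lower in every deletion library, and the 6 libraries fall into the same 2 groups. Their own log2 fold changes were -0.21 for hhp1, -0.33 for mug122 and -0.18 for krs1.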

How the data were processed

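The authors deposited raw counts per gene for 6 libraries and a table of their own comparison. Per the file headers, the deposited comparison holds log2 fold changes and their errors. It also holds the Wald statistic, a score deposited beside raw and adjusted p-values. Mean normalized counts of each group are deposited there as a signal. The submitters' processing notes name HISAT2 2.1.0, HTSeq 0.10.0, SAMtools, DESeq2, DESeq and the build ASM294v2, with no role or order. No source used here states whether counting used strand.

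The count table has 6987 lines for 6986 genes, and the repeated identifier was summed. Names came from the deposited annotation; 6833 genes (97.8%) matched RefSeq (ASM294v3), which was used only for names, neighbours, lengths and GC content. Counts were analysed with edgeR 4.0.16 in R 4.3.3 by its quasi-likelihood test. Genes were kept by filterByExpr at 10 counts, libraries were scaled by TMM, and genotype alone was modelled, which left 6045 genes. P-values were adjusted by Benjamini-Hochberg, and the procedure was tested on simulated data. There it called 41% of 58 genes changed 1.25-fold, 79% of 47 changed 1.5-fold, 90% of 42 changed 2-fold and 100% of 53 changed 4-fold. Of 5824 unchanged genes it called 9. Far fewer genes were changed there than the 53.3% called in the real data, so these rates need not hold for the real data. Small changes that did not pass may have been missed. Each SE is approximate: the size of the log2 change over the root of its F value. Pairs of libraries of one group differed by a chi-square of 5.95 to 15.9 per degree of freedom, so none was a duplicate. Alternatives used DESeq2 1.42.0, limma-voom (limma 3.58.1), other scalings and filters, each library left out and the replicate number as a block. Named genes are the 9 members, duf89, the nearest (by midpoint) and the overlapping measured genes, and 7 related lists. The 3 genes most like the member with the smallest adjusted p were added. Members and lists were chosen with earlier results of these data known. Figures were drawn with matplotlib 3.10.9.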

Additional observations from a re-analysis of the deposited data

How the results depend on the processing

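The calls of git11 and rst2 passed in all 17 alternative fits and at an adjusted p below 0.01. That stricter threshold ended the call of cgs2 (-0.22) and left 1152 genes higher and 932 lower, 1 pathway member lower and 6 related genes lower. Total counts ended the call of cgs2 (-0.15), added cgs1 (0.47; 2 members higher, 1 lower), left 9 related genes lower and turned git3 (0.0081), pka1 (0.031), ste11 (0.015) and php3 (0.025). Cyclic loess left 8 related genes lower and turned git5 (-0.24), cyr1 (-0.045), git1 (-0.030), moc2 (0.10), hxk1 (0.027), mam2 (-0.16), and the neighbours SPAC23H3.12c (-0.12), omh5 (-0.035), csn1 (-0.025), cut4 (-0.19) and cdc48 (0.0022). GC-corrected offsets turned git5 (-0.10), cyr1 (-0.055), pka1 (0.0081), git1 (-0.060), psk1 (-0.016), php3 (0.017), mam2 (-0.074), SPAC23H3.12c (-0.037) and cut4 (-0.066). DESeq2 turned git5 (-0.0080) and cyr1 (-0.0067), its size factors in edgeR git5 (-0.0080) and cyr1 (-0.0067), the filter at 10 CPM git5 (-0.00036), and limma-voom git5 (-0.0012) and mam2 (-0.044). Of these turned values, moc2 and cut4 with cyclic loess passed the test, and neither passed as reported. Among related genes and neighbours, total counts ended the calls of moc4, hxk1, tup12, pcr1, php5 and cdc48 and added php2. Cyclic loess ended those of hsp90, cap1, moc1, moc4, tup12, sty1, php5, rgs1 and fsv1, besides hxk1, csn1 and cdc48 above, and added php3 and map3. GC-corrected offsets ended those of moc1, hxk1, rgs1, ssb2, csn1 and cdc48 and added moc3, sck1 and php2. DESeq2 and its size factors added moc3, testing without a filter ended hxk1, and leaving out mitochondrial and rRNA genes ended moc4, hxk1 and tup12. The cause of these shifts was not tested.

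With each library left out in turn, log2 fold changes ran from -0.087 to 0.011 for git3, -0.031 to 0.061 for git5, -0.047 to 0.067 for cyr1, -0.26 to -0.15 for cgs2, 0.33 to 0.53 for cgs1 and -0.070 to 0.0033 for pka1. They ran from -0.16 to 0.056 for ste11, -0.090 to 0.013 for php3, -0.32 to 0.24 for mam2, -0.019 to 0.17 for SPAC23H3.12c, -0.24 to 0.68 for SPAC8C9.04-antisense-1 and -0.0080 to 0.077 for cut4. Between 1 and 2 members were called higher, 1 and 2 lower, and 7 and 13 related genes lower.

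Same-numbered libraries did not steadily deviate together (r = -0.13, -0.17 and 0.26 over genes). The highest value was 0.34, for deletion replicate 2 with wild-type replicate 1. These values do not show that the replicate numbers pair the samples. With the replicate block 1900 genes were higher and 1633 lower, the calls of the 9 members did not change, moc3 and sck1 passed, and mam2 turned (-0.027). The counts of cgs1, gnr1 and fbp1, 70 to 155 per library, limit what their differences can show, and the filter at 10 CPM leaves all of them untested.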
